A study of Rattus norvegicus with 8 samples.

Results

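The NADPH oxidase genes described here are Cyba, Cybb, Nox4, Ncf1, Ncf4 and Rac2, followed across 4 treatments of cultured rat neurons. They were taken as every array probe whose RefSeq accession carried one of these symbols, which gave 6 genes of the 26903 genes and accessions on the array, each with 1 probe spotted 2 times. They were chosen by their log2 ratios to vehicle on these same arrays, so those ratios are given as a description, and calls on them are counted only beside the share of all genes called. The neurons were primary cultures of cortical and hippocampal tissue (Sprague Dawley, embryonic day 18, from BrainBits) and had been grown for 7 days when treatment began. ADDLs are soluble oligomers of the amyloid-beta peptide, and CAT-SKL is a form of the peroxide-degrading enzyme catalase that carries a peroxisome-targeting signal. One group received 1 µM CAT-SKL for 24 h and another 1 µM ADDL for 24 h. The group CAT-SKL+ADDL received 1 µM CAT-SKL for 24 h and then 1 µM ADDL for a further 24 h, and the group ADDL+CAT-SKL received the same agents in the opposite order. Each group had 2 arrays, labelled as biological replicates, on which treated RNA in Cy5 was hybridised against RNA of vehicle-treated neurons in Cy3. The question was which genes change with amyloid oligomers when the targeted antioxidant is present or absent.

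NADPH oxidases are membrane complexes that pass electrons from NADPH to oxygen and release superoxide or hydrogen peroxide. In the phagocyte enzyme, the catalytic chain NOX2 (gene Cybb) is held in the membrane by its partner chain (Cyba). It is switched on when its cytosolic subunits, the products of Ncf1 and Ncf4 among them, move to the membrane together with a Rac GTPase. In brain, this enzyme is best known from microglia, while neurons and astrocytes are also described to hold it. NOX4 shares the Cyba chain but is active without the cytosolic subunits.

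A log2 ratio above 0 means more signal in the treated than in the vehicle channel. The CAT-SKL+ADDL arrays differed by no more than duplicate spots of 1 array did: over 13221 probes, the SD of their difference was 0.0855 and spot noise alone gave 0.0873. The differences seen in first and second spots correlated at r = 0.00751, against 0.29 to 0.709 for the other 27 pairs of arrays. Both arrays were therefore counted as 1 sample, and the limma fit ran on 7 samples. The median Cy5 signal was 87.5 on ADDL+CAT-SKL 2 and 97 to 127.5 on the other 7 arrays, and the median Cy3 signal was 104 to 111.5. Of the neuron markers, 9 were measured, and all were above background in both channels on every array. The p-values below reflect sample-to-sample spread alone, which may be technical.

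RefSeq promoters (build GRCr8) were held for 4 of the 6 genes, and 3 are printed to show how the start regions of Cyba, its partner Cybb and the cytosolic Ncf1 differ. Each run is the 250 bases before the annotated start, read 5′ to 3′ on the gene's strand. Capitals mark the ETS core GGAA and the Sp1 box GGGCGG on either strand. Cyba lies on the minus strand at chr19:67404215-67404464, Cybb on the minus strand at chrX:16065066-16065315 and Ncf1 on the plus strand at chr12:28121635-28121884.
Cyba: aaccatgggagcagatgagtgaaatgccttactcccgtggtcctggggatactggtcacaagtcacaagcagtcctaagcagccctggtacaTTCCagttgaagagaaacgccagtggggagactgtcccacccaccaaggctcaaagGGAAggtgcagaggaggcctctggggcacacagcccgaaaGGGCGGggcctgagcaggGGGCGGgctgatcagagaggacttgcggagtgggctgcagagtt
Cybb: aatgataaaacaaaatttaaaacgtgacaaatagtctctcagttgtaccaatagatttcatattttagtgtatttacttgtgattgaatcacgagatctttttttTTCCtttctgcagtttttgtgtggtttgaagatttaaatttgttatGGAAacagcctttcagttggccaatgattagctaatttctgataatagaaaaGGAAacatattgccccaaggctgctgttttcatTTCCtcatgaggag
Ncf1: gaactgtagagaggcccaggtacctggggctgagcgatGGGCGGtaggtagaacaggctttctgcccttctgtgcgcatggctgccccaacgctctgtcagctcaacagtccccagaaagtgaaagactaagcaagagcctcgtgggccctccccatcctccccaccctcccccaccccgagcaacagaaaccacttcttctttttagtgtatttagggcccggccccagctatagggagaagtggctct
The Cyba window was rich in G and C, at 59.6% with 6 CpG, and Ncf1 was similar at 58.4% with 7 CpG. Cybb stood below the median of 51.2% over 33469 promoters, at 32.0% with 2 CpG, where the median promoter held 5 CpG. The Sp1 box occurred 2 times in Cyba, 1 time in Ncf1 and 0 times in Cybb, and 30.5% of all promoters held it. The ETS core occurred 2 times in Cyba, 4 times in Cybb and 0 times in Ncf1, but 93.2% of all promoters held it. An AP-1 site (TGANTCA, either strand) was found 1 time in Cybb and in neither of the others, against 6.34% of all promoters. An antioxidant response element core (TGACNNNGC, either strand) was found 1 time in Ncf1 and in neither of the others, against 10.1% of all promoters. These matches are letters in a window and not measured sites.

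Cyba encodes the small membrane chain that NOX2, NOX4 and NOX1 need for stability. In the ratios used here it had the highest single value of the 6 genes. In the ratios deposited by the authors the highest was that of Rac2, 1.68, against 1.45 for Cyba. The log2 ratios of Cyba were 1.18 and 0.72 after CAT-SKL, and 0.64 and 0.82 after ADDL. After CAT-SKL+ADDL they were 1.06 and 0.88. After ADDL+CAT-SKL they were 0.58 and 0.05. Cyba was thus above vehicle on all 8 arrays, highest on CAT-SKL 1 and close to vehicle on ADDL+CAT-SKL 2, the array with the lowest median Cy5 signal. The group means were 0.95 ± 0.32 (SD, n = 2; 1.93-fold) for CAT-SKL and 0.73 ± 0.12 (SD, n = 2; 1.66-fold) for ADDL. They were 0.97 (1.96-fold, 2 arrays counted as 1 sample) for CAT-SKL+ADDL and 0.32 ± 0.37 (SD, n = 2; 1.25-fold) for ADDL+CAT-SKL. In the order CAT-SKL+ADDL, CAT-SKL, ADDL, ADDL+CAT-SKL, the arrays of the first and second groups overlapped, as did those of CAT-SKL and ADDL. Both arrays of CAT-SKL+ADDL lay above both of ADDL, with 0.24 between the means, an order that 22.4% of all genes tested shared. Both ADDL arrays lay above both ADDL+CAT-SKL arrays, with 0.41 between the means, and 20.6% of all genes tested were ordered that way. The nearest arrays of these groups, at 0.64 and 0.58, were closer than the largest gap between duplicate Cyba spots, 0.21. Neither order held under every way of processing. In the deposited ratios ADDL 2 was at 1.13, above CAT-SKL+ADDL 2 at 1.07. With arrays centred on their median, ADDL 1 was at 0.62, below ADDL+CAT-SKL 1 at 0.68.

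The Cyba probe was well above background in both channels on all 16 spots. Its treated signal was 6.17 to 16.5 times the local background and its vehicle signal 5.11 to 6.37 times. On the log2 scale the vehicle level varied with an SD of 0.10 over the 8 arrays and the treated level with an SD of 0.30. The spread of the ratios was therefore mostly in the treated channel. In bulk RNA, fewer cells of a type and less RNA per cell cannot be told apart.

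**Figure D1:**
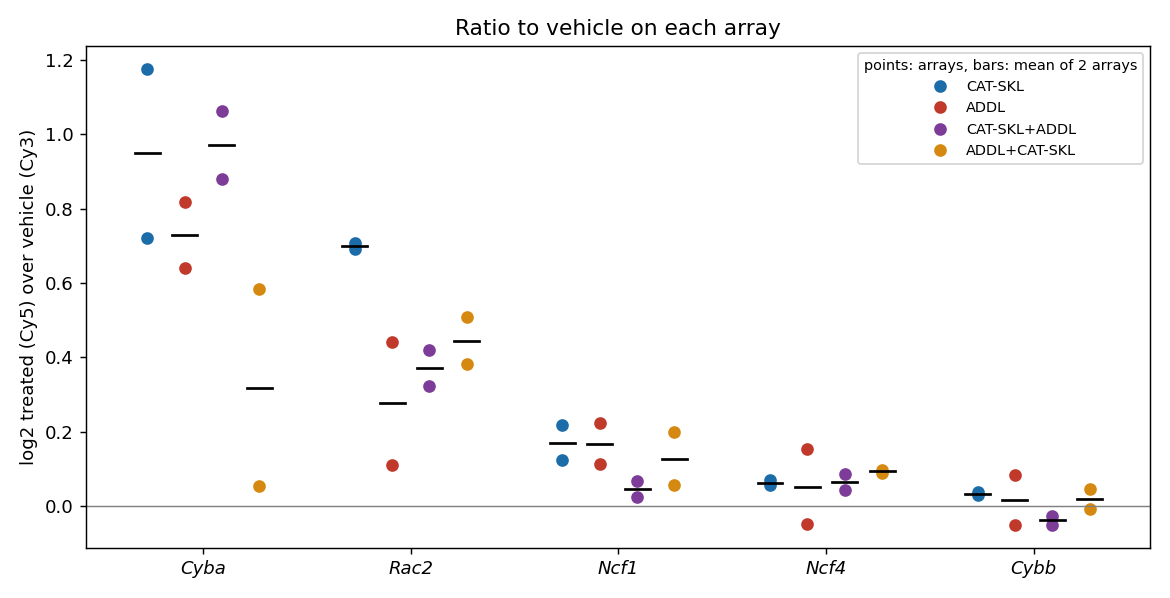
Log2 ratio of treated (Cy5) over vehicle (Cy3) for 5 NADPH oxidase genes, with a point for each array and a bar at the mean of the 2 arrays of a group. Cyba reaches 1.18 and Rac2 0.71, while Ncf1 stays at or under 0.22 and Ncf4 and Cybb lie around 0. Nox4 is left out because it was not well above background.

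Cybb, the catalytic chain that pairs with Cyba, lay at the edge of detection. Its log2 ratios were 0.04 and 0.03 after CAT-SKL, -0.05 and 0.08 after ADDL, -0.05 and -0.03 after CAT-SKL+ADDL, and 0.05 and -0.01 after ADDL+CAT-SKL. The arrays lay on both sides of 0, and no group mean was farther from it than that of CAT-SKL+ADDL, at -0.04. The treated signal was 1.05 to 1.45 times background, with 7 of 16 spots well above it, and the vehicle signal was 1.03 to 1.46 times background, with 3 of 16 spots. The ratios deposited by the authors, which are background-subtracted per the file headers, ran from -0.05 to 1.13 for this probe. So close to background, a difference between groups was not detectable with this probe.

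Nox4 encodes a catalytic chain that works with Cyba alone. Its probe was not well above background in either channel on any of the 8 arrays, with 0 of 16 spots in each. The treated signal was 0.906 to 1.14 times background and the vehicle signal 0.975 to 1.27 times. No fold is given, and the gene was not in the fit.

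**Figure D2:**
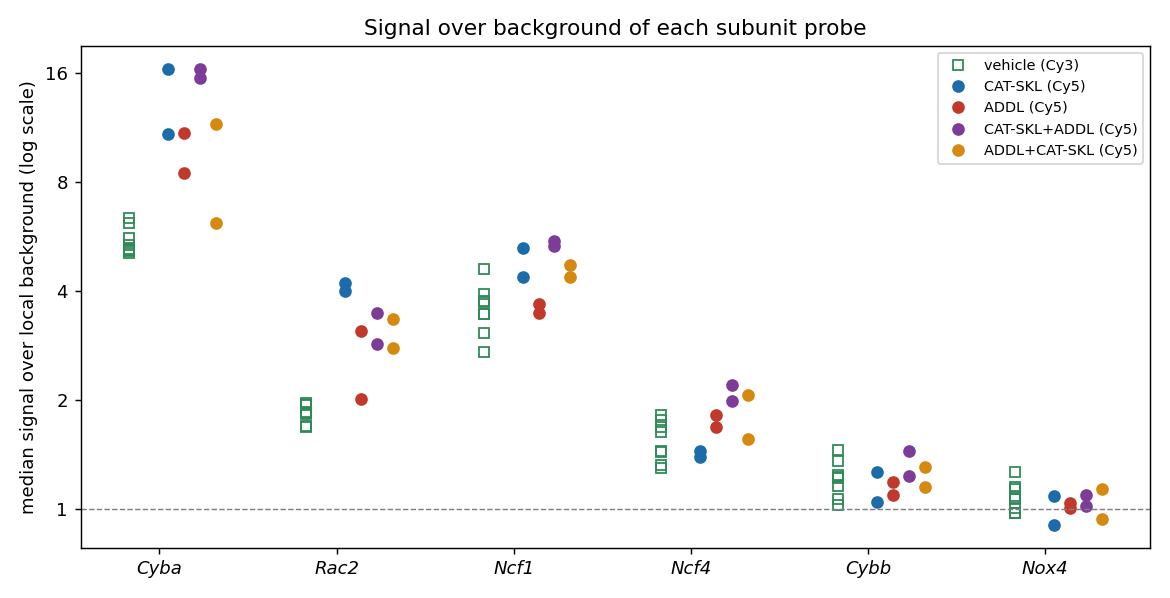
Median spot signal divided by local background (log axis) for the probe of each gene, as squares for vehicle in Cy3 and circles for the treated samples in Cy5, with 1 symbol per array. Treated Cyba lies between 6.17 and 16.5, Nox4 stays around 1 (dashed line) in both channels, and heights of different probes are not to be compared.

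Ncf1 encodes the organising subunit that is phosphorylated when the phagocyte oxidase is activated and then binds the Cyba chain. Its log2 ratios were 0.22 and 0.12 after CAT-SKL, 0.22 and 0.11 after ADDL, 0.07 and 0.03 after CAT-SKL+ADDL, and 0.06 and 0.20 after ADDL+CAT-SKL. All 8 arrays lay above 0, none by more than 0.22. The means were 0.17 ± 0.07, 0.17 ± 0.08, 0.05 (1 sample) and 0.13 ± 0.10 (SD, n = 2 where an SD is given), in the same order of groups. Both arrays of CAT-SKL+ADDL lay below both arrays of CAT-SKL and of ADDL. Such an order was common: 16.3% of all genes had CAT-SKL above CAT-SKL+ADDL and 24.9% had ADDL above it. The means differed by 0.12 in both cases, and the SD between duplicate spots was 0.08. The probe was above background on all 16 spots of both channels, at 3.48 to 5.51 times background in Cy5 and 2.73 to 4.61 times in Cy3.

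Ncf4 encodes a smaller cytosolic subunit that binds a membrane lipid of phagosomes. Its log2 ratios were 0.06 and 0.07 after CAT-SKL, 0.15 and -0.05 after ADDL, 0.09 and 0.04 after CAT-SKL+ADDL, and 0.09 and 0.10 after ADDL+CAT-SKL. Only ADDL 2 was below 0, and the ADDL arrays spanned the values of every other group. The means were between 0.05 and 0.09. The signal was 1.39 to 2.20 times background in Cy5 and 1.30 to 1.82 times in Cy3. It was well above background on 16 of 16 spots in Cy5 and 15 of 16 in Cy3.

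Rac2 encodes the Rac GTPase of blood and immune cells, which joins the assembled phagocyte oxidase. Its log2 ratios were 0.69 and 0.71 after CAT-SKL, and 0.44 and 0.11 after ADDL. They were 0.32 and 0.42 after CAT-SKL+ADDL. They were 0.38 and 0.51 after ADDL+CAT-SKL. Rac2 was above vehicle on all 8 arrays, and both CAT-SKL arrays lay above the other 6. The means were 0.70 ± 0.01 (SD, n = 2; 1.62-fold) after CAT-SKL and 0.28 ± 0.23 (SD, n = 2; 1.21-fold) after ADDL. They were 0.37 (1.29-fold, 1 sample) after CAT-SKL+ADDL and 0.44 ± 0.09 (SD, n = 2; 1.36-fold) after ADDL+CAT-SKL. In the order CAT-SKL, ADDL+CAT-SKL, CAT-SKL+ADDL, ADDL, only the first and second groups did not overlap, and the neighbours after them did. The mean after CAT-SKL exceeded those of ADDL+CAT-SKL by 0.25, CAT-SKL+ADDL by 0.33 and ADDL by 0.42. Among all genes tested, both CAT-SKL arrays lay above both of ADDL+CAT-SKL in 20.1%, of CAT-SKL+ADDL in 16.3% and of ADDL in 18.3%.

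The Rac2 probe was dim but above background on all 16 spots of both channels. Its treated signal was 2.02 to 4.22 times background and its vehicle signal 1.68 to 1.96 times. The vehicle level had an SD of 0.05 over arrays and the treated level an SD of 0.22 (log2), while duplicate spots had an SD of 0.11. The probe's sequence was not used here, so its match to the close relatives Rac1 and Rac3 was not checked. Ncf4 and Rac2 lie on the same chromosome, 7, with 9 protein-coding genes between them in RefSeq, and with the offset Ncf4 stayed within 0.15 of vehicle where Rac2 reached 0.71.

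The size of the ratios depended on how they were made. Adding an offset of 50 to both channels draws the ratio of a dim probe towards 0. In the deposited ratios, Rac2 was 1.43 and 1.68 after CAT-SKL, 1.13 and 0.29 after ADDL, 1.01 and 1.07 after CAT-SKL+ADDL, and 0.96 and 1.17 after ADDL+CAT-SKL. The group means became 1.56 (2.94-fold), 0.71 (1.64-fold), 1.04 (2.06-fold) and 1.07 (2.09-fold), in the same order from highest to lowest as before. Deposited Cyba ratios had means of 1.20 after CAT-SKL, 1.00 after ADDL, 1.15 after CAT-SKL+ADDL and 0.56 after ADDL+CAT-SKL. The first and second groups changed places, and ADDL+CAT-SKL stayed lowest. Deposited Ncf1 ratios were above 0 on all 8 arrays, up to 0.41, with means of 0.33, 0.34, 0.11 and 0.24 for CAT-SKL, ADDL, CAT-SKL+ADDL and ADDL+CAT-SKL. Deposited Ncf4 ratios ran from -0.22 to 0.62 and were above 0 on 6 arrays, with means of 0.43, 0.08, 0.11 and 0.46 in that order.

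**Figure D3:**
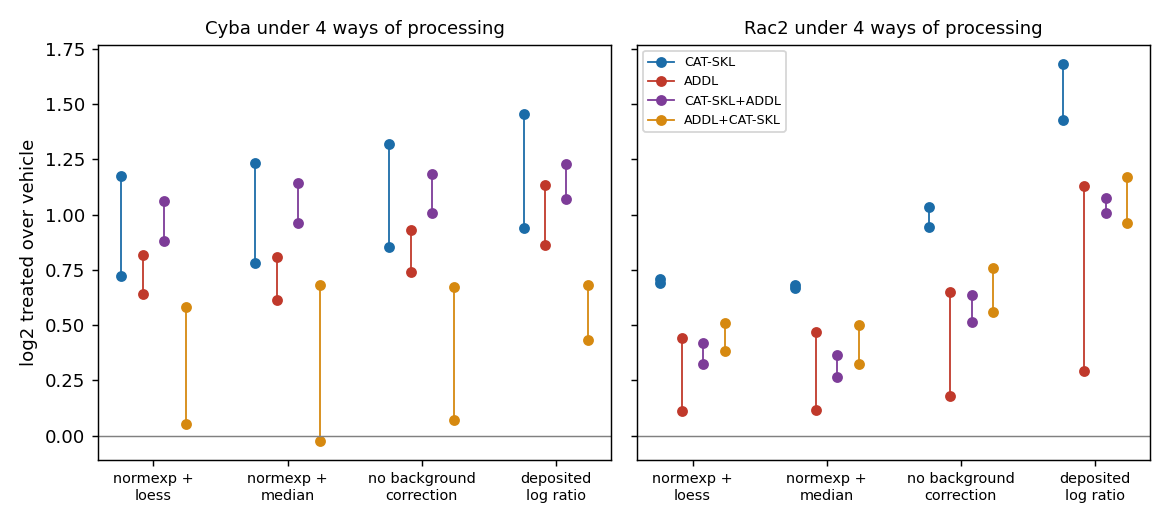
Log2 ratios of Cyba and Rac2 (treated over vehicle) under 4 ways of processing, with the 2 arrays of each group joined by a line. Rac2 after CAT-SKL goes from a mean of 0.70 to 1.56 in the deposited ratios, and Cyba after ADDL+CAT-SKL from 0.32 to 0.56. With arrays centred on their median, Cyba on ADDL+CAT-SKL 2 is -0.02.

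Of the 6 genes, 5 entered the fit. At an adjusted p below 0.05 (limma with Benjamini-Hochberg adjustment over 22459 genes), 2 of the 5 were called after CAT-SKL, Cyba and Rac2, both higher. Of all genes tested, 2.62% were called in this comparison, 0.837% higher and 1.78% lower. None of the 5 was called after ADDL (0% of all genes), after CAT-SKL+ADDL (0%) or after ADDL+CAT-SKL (0.454%). None was called between CAT-SKL+ADDL and ADDL (0%) or between ADDL+CAT-SKL and ADDL (0%). The comparisons against vehicle share the same control type, and these counts come from the contrasts with which the genes were chosen, so nothing is read from them. Without CAT-SKL 1, neither gene was called, and without either ADDL array only Rac2 was. With the deposited ratios none was called. Other settings called more of the 5, and in the same comparisons they also called more of all genes tested. Under median centring, Cyba was also called after ADDL and after CAT-SKL+ADDL, and Rac2 after ADDL+CAT-SKL. With 8 samples, with or without the replicate block, the same were called and Rac2 also after CAT-SKL+ADDL. Of all 22459 genes, 8 samples gave 975 calls after ADDL, 2322 after CAT-SKL+ADDL and 886 after ADDL+CAT-SKL. With the block these were 683, 2034 and 534. The counts over all genes for the other settings are given with the dependence on processing below. Without CAT-SKL 1 or without CAT-SKL 2, Cyba was called after ADDL. Cyba, Rac2 and Ncf1 were above 0 on all 8 arrays, as were 7.47% of all genes tested, and none of the 5 was below 0 on all 8, as 7.99% were.

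Glial markers were read on the same arrays as Cyba and Rac2. The median log2 ratio of 10 astrocyte markers was 1.03 and 0.24 after CAT-SKL, 0.51 and 1.00 after ADDL, 0.88 and 0.83 after CAT-SKL+ADDL, and 0.31 and -0.04 after ADDL+CAT-SKL. On some arrays this resembled Cyba: both were high on CAT-SKL 1 and on both CAT-SKL+ADDL arrays, and both were lowest on ADDL+CAT-SKL 2. The medians of 7 oligodendrocyte lineage markers took a like course, at 0.82 and 0.34 after CAT-SKL, 0.41 and 0.69 after ADDL, 0.78 and 0.80 after CAT-SKL+ADDL, and 0.13 and -0.09 after ADDL+CAT-SKL. On CAT-SKL 2 Cyba and the astrocyte markers parted, with Cyba at 0.72 and the markers at 0.24. On ADDL+CAT-SKL 1 Cyba was at 0.58 and the markers at 0.31. On ADDL 2 Cyba was the lower, at 0.82 against 1.00. The summed treated signal of the markers was 18686 to 34940 after CAT-SKL, 23198 to 33214 after ADDL, 30733 to 30752 after CAT-SKL+ADDL and 14661 to 18925 after ADDL+CAT-SKL, against 15006 to 15878 in vehicle. All 10 were above background on every array, and 0 passed the test in any of the 4 comparisons with vehicle. Below an unadjusted p of 0.05 (limma) were 7, 10, 7 and 0 of them in the order of groups above. Of all 22459 genes tested, 4765, 4269, 2543 and 3954 were below it. Probes of the astrocyte markers that were not used had means over all arrays of 0.11 and 0.12 for Aqp4 and 0.15 for S100b. Those of Slc1a3, Slc1a2 and Aldoc were at 0.5, 0.35 and 0.34. The part of astrocyte or oligodendrocyte lineage RNA in the Cyba ratios was not tested.

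Of 17 microglia markers, 15 were tested. Their median log2 ratio was 0.13 and 0.07 after CAT-SKL, 0.12 and 0.08 after ADDL, 0.07 and 0.04 after CAT-SKL+ADDL, and -0.11 and 0.02 after ADDL+CAT-SKL, so it stayed well under the Rac2 ratio on every array but ADDL 2. Their summed treated signal was 5087 to 5617 after CAT-SKL, 5865 to 6870 after ADDL, 5620 to 6026 after CAT-SKL+ADDL and 5044 to 5586 after ADDL+CAT-SKL, against 4847 to 5411 in vehicle. The integrin gene Itgam was above background on 0 arrays and Ptprc, the leukocyte antigen CD45, on 1 array in Cy5 and 0 in Cy3. After CAT-SKL, 1 of the 15 rose, Fcer1g, which encodes a signalling chain of Fc receptors, with log2 ratios of 0.62 and 0.51 (mean 0.57, adjusted p 0.0261 by limma). None rose or fell in the other 3 comparisons with vehicle. Below an unadjusted p of 0.05 (limma) were 6 of the 15 after CAT-SKL, 6 after ADDL, 1 after CAT-SKL+ADDL and 1 after ADDL+CAT-SKL. Of all 22459 genes tested, 4765, 4269, 2543 and 3954 were below it in that order. A mean above 0 was held by 10, 14, 10 and 8 of the 15 in that order of groups. Of all genes, 49.3%, 50%, 48.6% and 48.6% had one. Among the 14 after ADDL were Cx3cr1 at 0.57, Laptm5 at 0.33 and Tyrobp at 0.29. After CAT-SKL, Aif1 was at 0.37 and Cd68 at -0.19. On the other arrays Fcer1g was at 0.52 and 0.25 after ADDL, 0.31 and 0.18 after CAT-SKL+ADDL, and 0.22 and 0.13 after ADDL+CAT-SKL. The part of microglial RNA in the Rac2 ratios was not tested. Of the granulocyte markers, 4 had a probe: Elane and S100a8 were above background on 0 arrays, S100a9 on 7 in each channel, and Cxcr2 on 6 in Cy5 and 3 in Cy3. After CAT-SKL, 3 of 7 oligodendrocyte lineage markers also rose (limma): Pdgfra (1.19), Olig2 (0.50) and Sox10 (0.57), each on the log2 scale. Of these, only Olig2 had a further probe, which was not used and had a mean of 0.01 over all arrays.

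**Figure D4:**
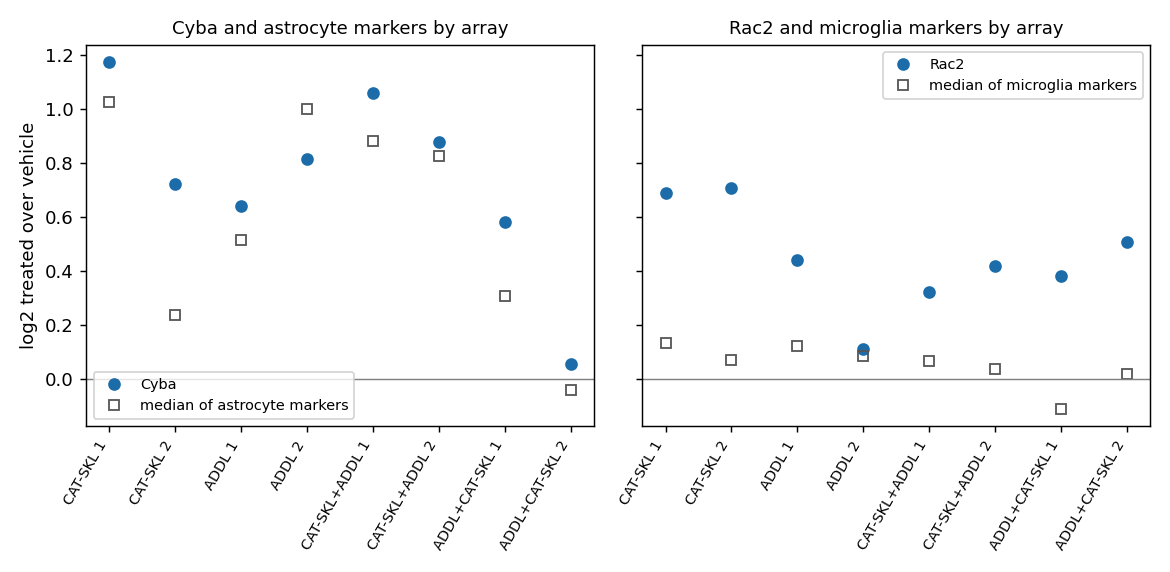
Log2 ratio of treated over vehicle by array (x axis) for Cyba beside the median of 10 astrocyte markers (left) and for Rac2 beside the median of 15 microglia markers (right). Cyba and the astrocyte markers are both lowest on ADDL+CAT-SKL 2, at 0.05 and -0.04, while the microglia median stays at or under 0.13.

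The genes with ratio profiles closest to a member were ranked by the root mean square difference over the 7 samples. Among the 5 nearest to Cyba were Cfap52 at 0.17 (log2), and Gpm6b, Gramd2b and Slc32a1, the vesicular GABA transporter, each at 0.19. Nearest to Rac2 were the macrophage receptor gene Adgre1 at 0.13, the neuropeptide gene Crh at 0.14, Pno1 at 0.17, Car8 at 0.18 and Fcer1g at 0.19. These are descriptions over shared arrays and carry no test.

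Of 12 further genes for oxidase subunits and their maturation factors, 9 had a probe and 8 were tested. Of those with a probe, Nox3 was not tested because it did not pass the filter on dim probes. In the 6 comparisons, 0 of 8 rose and 0 of 8 fell (limma), with 0, 1, 0 and 1 below an unadjusted p of 0.05 after CAT-SKL, ADDL, CAT-SKL+ADDL and ADDL+CAT-SKL, and 0 and 1 for CAT-SKL+ADDL and ADDL+CAT-SKL against ADDL. Of all 22459 genes tested, 4765, 4269, 2543 and 3954 were below it against vehicle, and 876 and 1885 against ADDL. The median log2 ratios of the 8 were 0.03, -0.04, -0.003 and 0.02 against vehicle in that order of groups. The medians of all genes were -0.0014, -0.0002, -0.004 and -0.0033. Rac1, the widely expressed relative of Rac2, was at -0.11 and 0.05 after CAT-SKL, -0.11 and -0.12 after ADDL, -0.02 and -0.05 after CAT-SKL+ADDL, and 0.02 and -0.06 after ADDL+CAT-SKL. Its ratio was below that of Rac2 on all 8 arrays, and its vehicle signal was 22.1 to 28.2 times background. Nox1, a catalytic chain that also needs Cyba, was at -0.21 and 0.40 after CAT-SKL, -0.08 and -0.04 after ADDL, 0.20 and 0.16 after CAT-SKL+ADDL, and 0.32 and 0.70 after ADDL+CAT-SKL. Its mean after ADDL+CAT-SKL was 0.51 (SE 0.14, n = 2, adjusted p 0.119 by limma), and it passed under median centring. Its difference from ADDL was 0.57 (SE 0.19, adjusted p 0.573 by limma), both arrays of ADDL+CAT-SKL being above both of ADDL. How many of all genes shared that order was not counted, while 20.6% had the reverse. Cybc1, needed for the maturation of the Cybb protein with Cyba, had a mean of -0.13 after ADDL (SE 0.05, adjusted p 0.217 by limma) and lay below 0 on both arrays. Noxa1, an activator of NOX1, had a mean of 0.09 after CAT-SKL (SE 0.05, adjusted p 0.401 by limma).

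**Figure D5:**
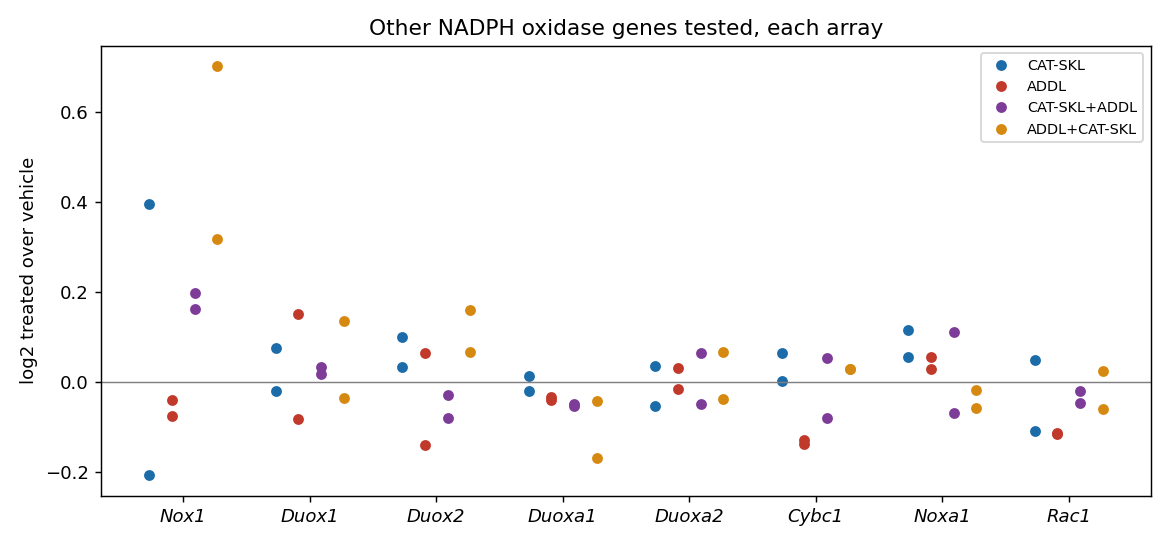
Log2 ratio of treated over vehicle on each array for the 8 further NADPH oxidase genes that were tested, with 2 points per group. Most points lie near 0, and Nox1 spreads from -0.21 to 0.70.

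Of 19 regulators of the oxidases, 15 had a probe and 13 were tested. None rose or fell in any of the 6 comparisons (limma), with 3, 2, 1 and 0 below an unadjusted p of 0.05 against vehicle in the order of groups above and 1 in each comparison with ADDL. The counts over all genes are those given with the further subunits. Closest to the threshold among the regulators was Pak1, a kinase that Rac activates and that can phosphorylate the Ncf1 product. It was at -0.25 after CAT-SKL (SE 0.06, adjusted p 0.0602 by limma) and below 0 on all 8 arrays. Prkcd, a protein kinase C that phosphorylates the Ncf1 product, was at 0.22 after CAT-SKL (SE 0.06, adjusted p 0.0752 by limma), and both passed with 8 arrays taken as 8 samples. Cdc42, a GTPase related to Rac, was at 0.29 after ADDL (SE 0.07, adjusted p 0.0859 by limma).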

How the data were processed

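The deposited scanner files hold median spot and local background intensity per channel, with no mean spot signal among the columns used, so medians replaced the planned means. They also hold log10 ratios of red over green from Agilent Feature Extraction 11.5 (version per the submitters' processing notes), made after background subtraction and dye normalisation, per the file headers. The deposited series table repeats these log10 ratios (largest difference 0.005, median 0 on each array). Flags per spot mark outliers, saturation and signal above background. Intensities were background-corrected with normexp (offset 50) and normalised by loess in limma 3.58.1 (R 4.3.3), and log2 ratios were formed. Spots flagged as outliers were left out (902 to 1262 per array), and 0 spots were saturated. Testing required a signal well above background, in Cy5 or Cy3, on 2 or more arrays (25363 of 30367 probes). The brightest tested probe stood for its gene, which gave 22459 genes and accessions. Probes were named by accession through RefSeq (17998 with a symbol). Array design and RefSeq table use different builds, so no probe coordinates are given.

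All groups shared 1 limma fit of 7 samples, tested on simulated data, with Benjamini-Hochberg adjustment over all genes and a threshold of 0.05. Vehicle was in Cy3 on every array, so the test of a ratio against 0 leaves out the spread of vehicle and cannot separate a probe's dye effect from treatment. The members and gene lists were chosen with earlier results of these data known. Named are all 6 members and, of the further subunits and regulators, those passing or otherwise up to 4 per comparison with the smallest p; nearest profiles are the 5 with the smallest root mean square difference. Alternatives were 8 samples, the replicate number as a block, median centring, the deposited ratios, no background correction, other probe filters, the mean of a gene's probes, and each array left out. The replicate numbers did not pair the samples. Some genes that these rules name are not reported here.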

Additional observations from a re-analysis of the deposited data

Results flagged for a closer look

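Some gene and group pairs are listed because both arrays of one group lay above 0 and both of another lay below it (log2 ratio to vehicle). The share of all genes with such a pair was not counted. Both arrays of one group lay above both of another, whatever the sign, in 16.3% to 24.9% of all genes for the orders counted. Cybb was 0.07 higher after CAT-SKL than after CAT-SKL+ADDL, a difference that was not tested, at a probe close to background. Nox1 after ADDL stood at -0.24 relative to CAT-SKL+ADDL (adjusted p 1 by limma) and at -0.57 relative to ADDL+CAT-SKL (adjusted p 0.573 by limma). Duox2 was 0.12 higher after CAT-SKL than after CAT-SKL+ADDL, and CAT-SKL+ADDL stood at -0.17 relative to ADDL+CAT-SKL; neither was tested. Cybc1 was 0.17 higher after CAT-SKL than after ADDL, which was not tested, and ADDL stood at -0.16 relative to ADDL+CAT-SKL (adjusted p 0.606 by limma). Noxa1 was 0.12 higher after CAT-SKL than after ADDL+CAT-SKL, which was not tested, and 0.08 higher after ADDL than after ADDL+CAT-SKL (adjusted p 0.786 by limma).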

How the results depend on the processing

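Cyba and Rac2 kept positive group means under median centring, without background correction and with the deposited ratios, and their sizes moved. Cyba became 1.00 after ADDL and 1.15 after CAT-SKL+ADDL with the deposited ratios. Rac2 after CAT-SKL was 0.67 with median centring, 0.99 without background correction and 1.56 with the deposited ratios. In the deposited ratios Rac2 was 0.71 after ADDL, 1.04 after CAT-SKL+ADDL and 1.07 after ADDL+CAT-SKL, and without background correction it was 0.57 and 0.66 in these last groups. Leaving out 1 array left Cyba at 0.72 to 1.18 after CAT-SKL, 0.64 to 0.82 after ADDL, 0.88 to 1.06 after CAT-SKL+ADDL and 0.05 to 0.58 after ADDL+CAT-SKL. It left Rac2 at 0.69 to 0.71, 0.11 to 0.44, 0.32 to 0.42 and 0.38 to 0.51.

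Counts of called genes depended on the processing, and the cause was not tested. For CAT-SKL, ADDL, CAT-SKL+ADDL and ADDL+CAT-SKL against vehicle, 588, 0, 0 and 102 became 1820, 975, 2322 and 886 with 8 samples. With 8 samples and the replicate number as a block they were 1417, 683, 2034 and 534, and the numbers did not pair the samples (r of deviations -0.202 to 0.0784). Median centring gave 1819 (1417 higher, 402 lower), 430, 325 and 374, and 30 for ADDL+CAT-SKL against ADDL. The deposited ratios gave 0 in all 6 comparisons. With no filter on dim probes CAT-SKL gave 275 and ADDL+CAT-SKL 0, and without background correction ADDL+CAT-SKL gave 0. Leaving out 1 array gave 2 to 588, 0 to 329, 0 to 5 and 0 to 102, and 0 to 3 and 0 to 13 for CAT-SKL+ADDL and ADDL+CAT-SKL against ADDL. For CAT-SKL the count was 2 when CAT-SKL 1 was dropped and 387 when CAT-SKL 2 was. It was 53 after dropping ADDL 1 or ADDL 2, and 226 after dropping ADDL+CAT-SKL 1 or ADDL+CAT-SKL 2. For ADDL it was 329 without either CAT-SKL array. For ADDL+CAT-SKL it was 1 without ADDL+CAT-SKL 2 and 0 without ADDL+CAT-SKL 1 or any CAT-SKL or ADDL array.

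Of the further subunits, 0 passed in the main fit or with any 1 array left out. Nox1 alone (1 gene) passed after ADDL+CAT-SKL with the block and with median centring. Of the regulators, 0 passed with any 1 array left out. Pak1 and Prkcd (2) passed after CAT-SKL with 8 samples and with the block, and Arhgdib (1) with median centring. Cdc42 (1) passed after ADDL with 8 samples and with the block. After CAT-SKL+ADDL, Pak1 (1) passed with 8 samples, and Pak1 and Arhgdib (2) with the block. Signal over background limits Cybb, Ncf4 and Nox4 most.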
